A study of Rattus norvegicus with 8 samples.

Results

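The genes described here carry growth hormone and prolactin signals from the cell surface to the nucleus. They are the receptors Ghr and Prlr, the kinase Jak2, the transcription factors Stat5a and Stat5b, the feedback inhibitors Cish, Socs2 and Socs3, and the secreted factor Igf1. They were chosen by name, with earlier results of these data known. Their probes were found through the RefSeq accession that each array file gives for a probe. All 9 were found among the 14737 genes that could be named on the array, with 13 of its 30367 different probes. Expression was measured on one-colour Agilent arrays in cortical kidney slices of 8 adult RCCHanTMWIST rats, 4 males and 4 females, with 1 rat per array. The rats were untreated and of 1 strain, and they differed by sex.

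Growth hormone and prolactin each bind a class I cytokine receptor that has no kinase of its own and relies on JAK2, which is bound to its inner part. JAK2 phosphorylates the receptor and STAT5A and STAT5B, and the STAT5 proteins pair, enter the nucleus and bind DNA at short palindromic sites. Among the genes that STAT5 switches on are Cish and Socs2, whose products dampen the same receptors. In male rats growth hormone is secreted in separate pulses, and in female rats more evenly, and this difference is known to set many sex differences of the liver. IGF-1 is best known as the growth factor that the liver releases under growth hormone, and the kidney makes it as well.

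The sites that STAT5 binds have the form TTCNNNGAA, in which N is any base. This form reads the same on both strands. The window from 250 bases before to 50 bases after each annotated transcription start, from RefSeq on the rat assembly GRCr8, was searched for it. Windows were given for 8 of the 9 genes, and Prlr has 2 of them. Socs2 had no entry. Cish held 4 matches, and the window of the second start of Prlr held 1. The other 7 windows held none, which says only that these letters are not in them. Over all 33469 windows of the same length, 8.87% held the motif at least once, and 2 windows held it 4 times or more. The stricter form TTCCNGGAA, which is contained in the first, stood 2 times in the window of Cish, and 1.27% of all windows held it. A match is a description of the sequence and not a measured binding site. The 2 sequences with a match are shown so that the letters and their spacing can be read. Matches are in capitals.

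Cish, chr8:116850719-116851018, plus strand: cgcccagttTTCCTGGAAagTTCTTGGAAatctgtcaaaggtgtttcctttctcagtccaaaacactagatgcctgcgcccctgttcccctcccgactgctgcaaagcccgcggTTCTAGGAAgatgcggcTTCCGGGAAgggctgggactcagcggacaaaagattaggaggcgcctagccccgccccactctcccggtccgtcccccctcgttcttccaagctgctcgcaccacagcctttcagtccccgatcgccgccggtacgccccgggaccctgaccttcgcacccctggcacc
Prlr, second start, chr2:60909409-60909708, plus strand: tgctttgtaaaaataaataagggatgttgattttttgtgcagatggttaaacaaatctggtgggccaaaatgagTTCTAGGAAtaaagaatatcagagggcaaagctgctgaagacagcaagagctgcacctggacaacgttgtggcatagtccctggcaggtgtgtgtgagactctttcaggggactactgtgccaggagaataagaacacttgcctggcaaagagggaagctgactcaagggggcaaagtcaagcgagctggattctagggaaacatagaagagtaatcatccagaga

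The matches of Cish lay in 2 pairs. The outer pair, TTCCTGGAA and TTCTTGGAA, began 241 and 230 bases before the start. The inner pair, TTCTAGGAA and TTCCGGGAA, began 136 and 119 bases before it. The match of Prlr began 176 bases before its second start.

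**Figure D1:**
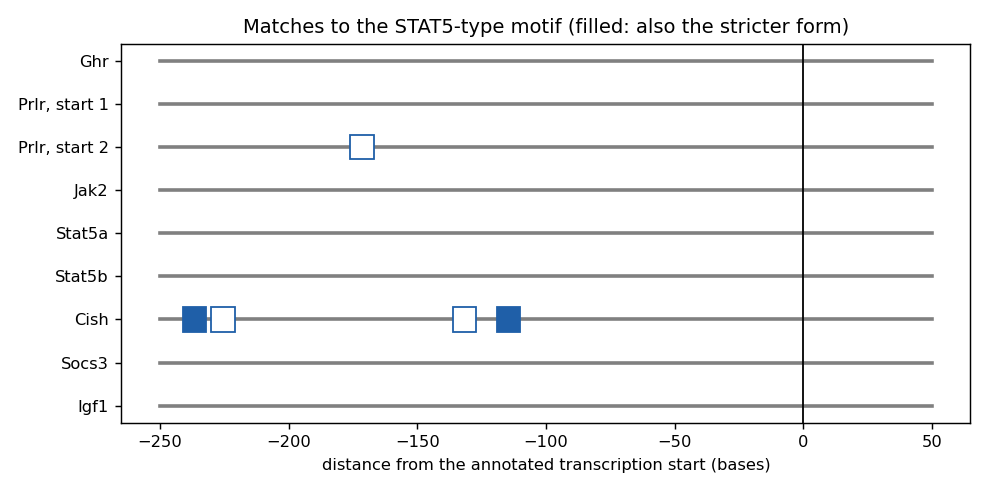
Matches to TTCNNNGAA (boxes, drawn to scale) in the window around each annotated transcription start; the x axis gives the distance from the start in bases and each row is 1 window, with 2 windows for Prlr. The 4 matches of Cish lie between 241 and 111 bases before the start, and filled boxes also match TTCCNGGAA.

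The values below are log2 signals from which the array's own 75th percentile was subtracted, so that 0 marks that percentile. Differences are log2 fold-changes, male minus female. A limma fit gave each p, with Benjamini-Hochberg adjustment across 23425 tested probes, those with a signal well above background on 4 arrays or more. All 13 probes of the pathway were well above background on every array, and no spot was saturated. The 75th percentile of the signal was 5025 to 5944 on the female arrays and 5685 to 6547 on the male arrays. A single slide carried all arrays, and each of its rows held 2 males and 2 females. Female replicate 4 was the female nearest to the males at 55.3% of the 443 probes that met both thresholds named below. The labels do not say whether rats shared a litter or cage. The number of arrays limits the precision, and in whole slices fewer cells of a type and less RNA per cell cannot be told apart.

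Of the 9 genes, 2 differed between the sexes at an adjusted p of limma below 0.05. Prlr was higher in males and Socs2 was higher in females, both by more than 2-fold. Over all tested probes, 8.05% met the adjusted p, 3.39% higher in males and 4.66% higher in females. The adjusted p together with a 2-fold difference was met by 1.89%, divided into 0.798% higher in males and 1.09% higher in females. These were 187 and 256 probes, and quantile normalization gave 223 and 221. At an unadjusted p below 0.05, 4 of the 9 genes were counted by their brightest probe, Ghr and Socs3 being the others, where 25.6% of all tested probes were counted. The values of males and females did not overlap for 3 genes, Ghr, Prlr and Socs2, while this held for 18.5% of all tested probes. The median log2 fold-change of the 9 brightest probes was 0.16, beside −0.04 for all tested probes. Within each row of the slide, the brightest probe of every one of the 9 genes kept its direction. Each row held only 2 rats of a sex. In the first row the difference was near 0 for Stat5a (0.04) and Igf1 (−0.07).

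**Figure D2:**
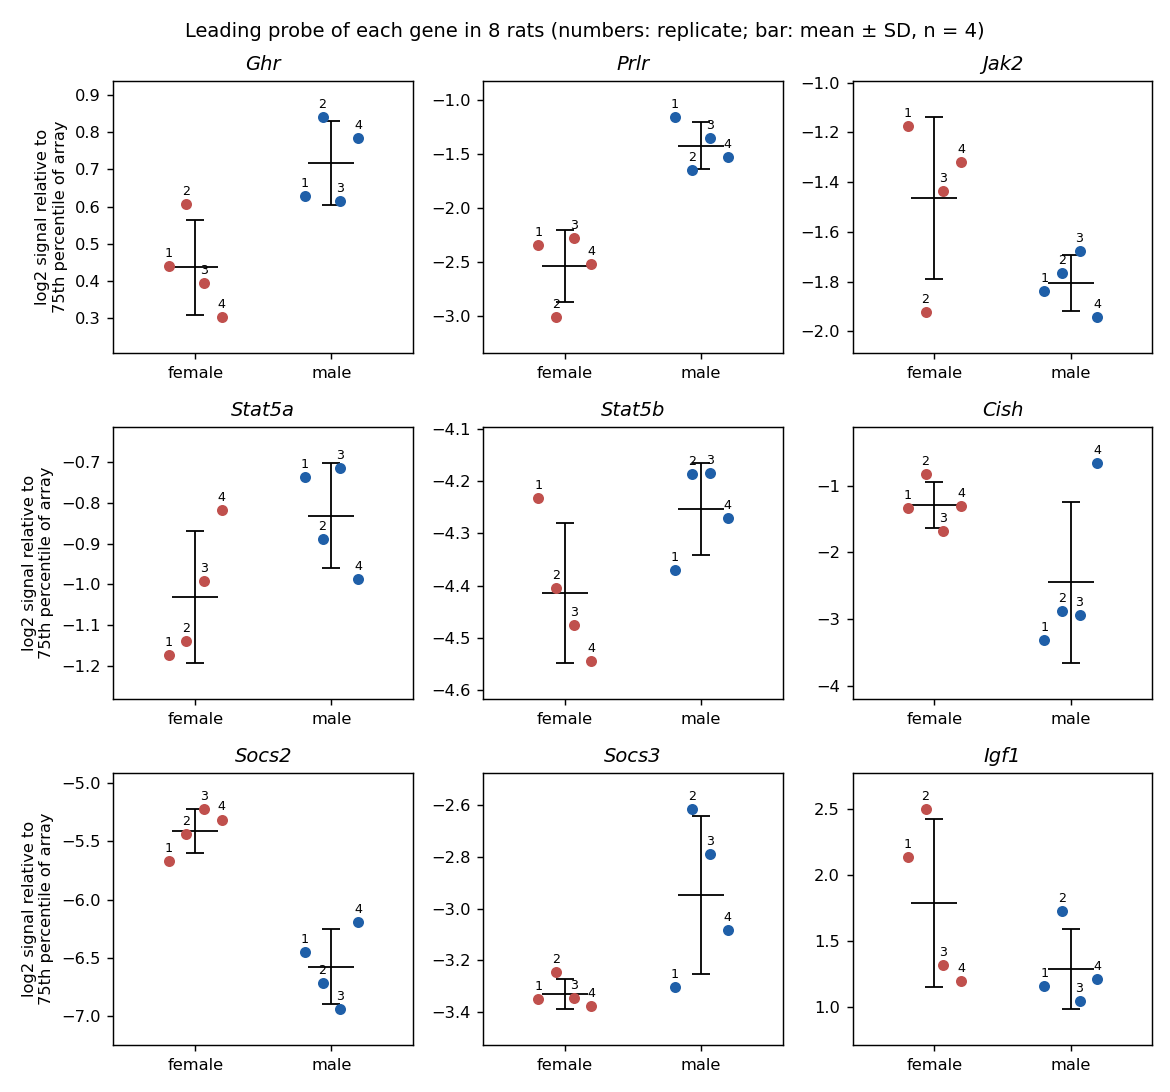
Log2 signal of the brightest probe of each gene relative to the 75th percentile of the array (y axis, a separate scale for each gene) in the 4 female and 4 male rats; points are rats with their replicate number, and bars are the mean ± SD. Prlr and Socs2 separate the sexes, and male replicate 4 lies apart from the other males for Cish.

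Prlr is the receptor of prolactin, which besides its part in lactation acts on many tissues, the kidney among them. Its 1 probe (A_44_P187181) is printed in 10 spots on each array. In the 4 females the log2 signal was −2.35, −3.02, −2.28 and −2.52, and in the 4 males −1.16, −1.65, −1.35 and −1.53. Every male thus lay above every female. Female replicate 2 was the lowest of the 8 rats and male replicate 1 the highest. Males averaged −1.43 ± 0.22 and females −2.54 ± 0.33 (SD, n = 4 each). The log2 fold-change of Prlr was therefore 1.12 (standard error 0.177), or 2.17-fold, and limma gave an adjusted p of 0.00885. The two-sided exact permutation test gave p = 0.0286, the smallest that 4 rats against 4 allow. In size, the difference exceeded those of 97.8% of the tested probes.

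The spots of Prlr on one array differed by an SD of 0.043 to 0.087 on the log2 scale, less than the SD between rats of either sex. Within the rows of the slide, the difference was 1.05 in the first and 1.18 in the second. Without female replicate 2 it was 0.96 (adjusted p of limma 0.0111), so that the 2-fold threshold was no longer reached. The probe is listed under 1 transcript of Prlr. Whether it separates the long form of the receptor, which carries the signal to STAT5, from the short forms was not tested.

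Ghr, the receptor of growth hormone, was measured by 3 probes. At the brightest (A_44_P320858) the log2 signal was 0.44, 0.61, 0.39 and 0.30 in the females and 0.63, 0.84, 0.61 and 0.78 in the males. The sexes did not overlap, but the highest female and the lowest male lay almost together. The log2 fold-change was 0.28 (standard error 0.091), or 1.21-fold, and the adjusted p of limma, 0.0995, misses the threshold. The exact permutation test gave p = 0.0286. At the probe A_64_P041812 the log2 fold-change was 0.10 and at A_43_P11817 it was 0.23, and the sexes overlapped at both (exact permutation test, p = 0.314 and 0.20). Within the rows of the slide these 2 probes did not keep their direction, with 0.33 and −0.13 at the first and 0.47 in one row at the second, where the other row gave almost 0. The 95% confidence interval at the brightest probe ran from 0.07 to 0.49, so that a 2-fold difference of Ghr lies outside it at this probe.

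**Figure D3:**
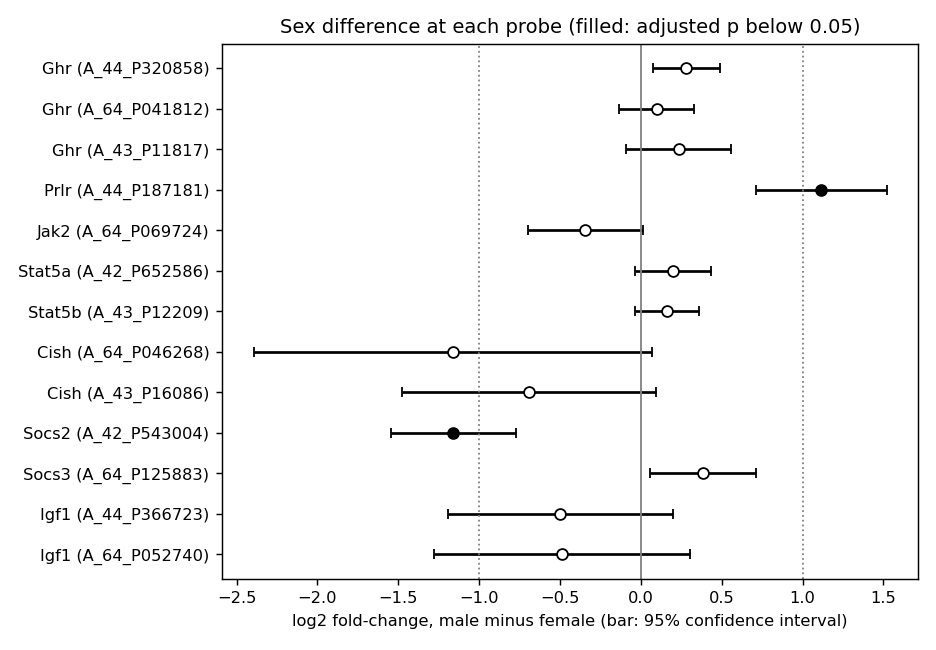
Log2 fold-change, male minus female (x axis), of each of the 13 probes, with the 95% confidence interval of limma; dotted lines mark a 2-fold difference. Filled points, at Prlr and Socs2, have an adjusted p below 0.05, and the interval of Cish is the widest.

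Jak2 is the kinase that both receptors share. Its log2 signal was −1.17, −1.92, −1.44 and −1.32 in the females and −1.84, −1.76, −1.68 and −1.94 in the males. Female replicate 2 lay within the male range, and the other 3 females lay above all males. Jak2 had a log2 fold-change of −0.34 with a standard error of 0.156, and limma gave an adjusted p of 0.212. Without female replicate 2 it was −0.50 with an adjusted p of 0.0372, so that 1 rat decided on which side of the threshold Jak2 fell.

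Stat5a and Stat5b, the factors that JAK2 activates, stand side by side on chromosome 10 and code for closely similar proteins. Stat5a (A_42_P652586, 10 spots) was −1.17, −1.14, −0.99 and −0.82 in the females and −0.74, −0.89, −0.71 and −0.99 in the males. Stat5b (A_43_P12209) was −4.23, −4.40, −4.48 and −4.54 in the females and −4.37, −4.19, −4.18 and −4.27 in the males. For both genes the sexes overlapped. The log2 fold-change of Stat5a was 0.20 (95% confidence interval −0.04 to 0.44, adjusted p = 0.268 from limma), and that of Stat5b was 0.16 (−0.04 to 0.36, adjusted p = 0.286). The intervals leave out a 2-fold difference in either direction. The arrays measured RNA, and the phosphorylation of STAT5, by which the pathway is switched on, was not measured.

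Socs2 codes for a SOCS protein that binds the activated growth hormone receptor and limits its signal. It was measured by the probe A_42_P543004, in 10 spots. This was the dimmest of the 13 probes, with a mean signal of 100 over the 8 arrays. The next was that of Stat5b with 295. In the females the log2 signal was −5.67, −5.44, −5.23 and −5.31, and in the males −6.45, −6.71, −6.93 and −6.19. Every male lay below every female, and male replicate 4 was the male nearest to them. Males averaged −6.57 ± 0.32 and females −5.41 ± 0.19 (SD, n = 4 each). The log2 fold-change of Socs2 was therefore −1.16 (standard error 0.168), a 2.24-fold higher signal in females, and limma gave an adjusted p of 0.00625. The exact permutation test gave p = 0.0286.

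The SD between the spots of Socs2 on one array was 0.087 to 0.212. The highest of these exceeded the SD between the females (0.192) but not that between the males (0.323). In the rows of the slide, the difference was −1.05 and −1.27. With normexp background correction it was −0.88 (adjusted p = 0.0018 from limma) and with quantile normalization added −0.78, both under the 2-fold threshold.

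Cish, whose promoter holds the 4 matches shown above, codes for the first known inhibitor of the SOCS family. At its brighter probe (A_64_P046268) the log2 signal was −1.34, −0.83, −1.68 and −1.31 in the females. In the males it was −3.32, −2.88, −2.94 and −0.66. Male replicates 1 to 3 lay below every female, and male replicate 4 lay above every female.

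At the second probe of Cish (A_43_P16086) the females were at −3.94, −3.55, −4.05 and −4.24. The males were at −5.15, −5.10, −4.74 and −3.56. The order was alike: male replicates 1 to 3 lay below all females, and male replicate 4 lay within the upper part of the female range, next to the highest female. The signal of male replicate 4 was 5.24-fold that of the other males at the brighter probe and 2.70-fold at the second. Both probes are printed in a single spot on each array and were not marked as outliers.

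Over all 8 rats, Cish had a log2 fold-change of −1.16 at the brighter probe (adjusted p of limma 0.219) and of −0.69 at the second (adjusted p of limma 0.247). The first is close to that of Socs2, but its standard error was 0.538 against 0.168. In the row of the slide with male replicate 4 the difference at the brighter probe was −0.50, and in the other row −1.83. Without male replicate 4 the log2 fold-change was −1.76 (adjusted p = 0.00645) and −1.05 (adjusted p = 0.0229), a 3.39-fold and a 2.07-fold higher signal in females. These values describe 7 rats. Male replicate 4 was picked out by its values at these same probes, so these adjusted p values are no test of Cish. With any other single array left out, the adjusted p of limma at the brighter probe lay between 0.263 and 0.385.

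Male replicate 4 was the male nearest to the females at 24.6% of the 443 sex-dependent probes, and the other males were so at 21.0% to 30.5%. At Bcl6, a repressor gene that growth hormone is known to lower in liver, the males were at 1.17, 0.79, 0.93 and −0.04, with male replicate 4 again nearest to the females, who lay between −1.65 and −1.23. At Prlr, its value was within the range of the other males. The linear signals of 9 immediate early genes, which respond to stimuli within a short time, were summed. The log2 of this sum was 3.04 in male replicate 4, 2.64 to 2.94 in the other males and 2.74 to 2.83 in the females. It was set mainly by Junb (male mean 2.03), Ier2 (0.75) and Jun (−0.22), and hardly by dim genes such as Fos (−6.10). It does not show whether the 9 genes moved together. The part of these genes in the values of Cish was not tested.

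**Figure D4:**
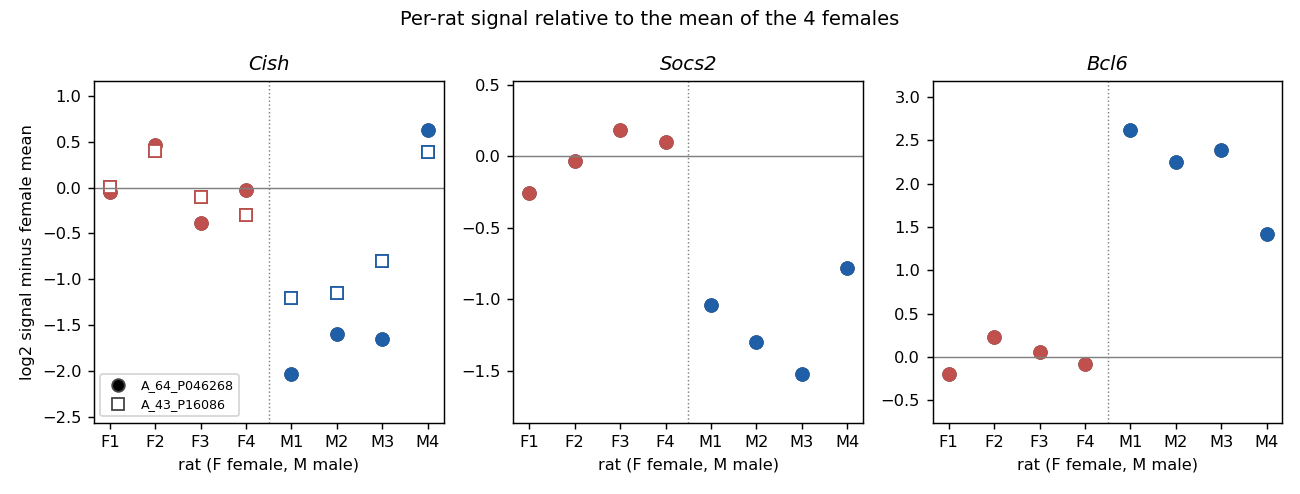
Log2 signal of Cish (both probes), Socs2 and Bcl6 in each rat minus the mean of the 4 females (y axis, a separate scale for each gene); red marks females and blue males. Male replicate 4 (M4) is near or above the highest female for Cish and is the male nearest to the females for Socs2 and Bcl6.

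Socs3, an inhibitor that answers mainly to cytokines of the interleukin 6 type, had another pattern. Its log2 signal was −3.35, −3.24, −3.35 and −3.38 in the females and −3.30, −2.61, −2.79 and −3.08 in the males. The females lay close together, and the males reached from the female level upward. Socs3 had a log2 fold-change of 0.38 with a standard error of 0.143, an adjusted p of 0.142 in limma and an exact permutation p of 0.0571. Socs2 and Socs3 thus differed in opposite directions by their fitted values, of which that of Socs2 passed the test. Male replicate 4, highest of all rats at the brighter probe of Cish, lay between the other males for Socs3.

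Igf1 was measured by 2 probes that are listed under different transcripts. At the brighter (A_44_P366723) the females were at 2.14, 2.51, 1.32 and 1.20, and the males at 1.17, 1.73, 1.05 and 1.22. Female replicates 1 and 2 and male replicate 2 stood above the other 5 rats. The second probe (A_64_P052740) gave the same 3 rats, with 1.15, 1.51 and 0.92, while the other 5 lay between −0.01 and 0.21. The sexes overlapped, with a log2 fold-change of −0.50 (95% confidence interval −1.19 to 0.20, adjusted p = 0.345 from limma) at the brighter probe and −0.49 (adjusted p = 0.426) at the second. With single arrays left out, the value at the brighter probe ran from −0.70 without female replicate 4 to −0.26 without female replicate 2, and the adjusted p stayed above 0.05. The 3 rats with the higher signal all lay in the second row of the slide, together with male replicate 3, which was at 1.05. Within the first row the difference was −0.07 and within the second −0.93, each from 2 rats a sex. The part of the slide row in Igf1 was not tested.

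Around these genes, 8 lists of pathway genes were examined, each gene by its brightest probe. They hold 91 different genes, some of them members as well. Of these, 80 had a named probe, 65 were tested and 9 met the adjusted p, 6 higher in males and 3 higher in females. The median log2 fold-change of the 65 genes was 0.04. Outside the 9 members, 8 of 58 tested genes met the adjusted p and 14 an unadjusted p below 0.05, which 3078 of 11825 named genes met by their brightest probe. Over all named genes by their brightest probe, 4.31% met the adjusted p with higher values in males and 4.86% in females.

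RNA of the hormones themselves was not detected in the slices, and the hormones as proteins were not measured. The probes of Gh1 and Prl, which code for growth hormone and prolactin and are made chiefly in the pituitary gland, were well above background on no array. Igfals, which codes for the protein that holds IGF-1 in a lasting complex in plasma, averaged −2.12 ± 0.20 in males and −2.71 ± 0.22 in females (SD, n = 4 each). The difference was 0.59 on the log2 scale, higher in males, and limma gave an adjusted p of 0.0377. With single arrays left out its adjusted p lay between 0.025 and 0.0911, and it stayed below 0.05 only without female replicate 1 and without male replicate 4.

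Among the tested kinases of the JAK family, Jak1, Jak2 and Jak3, none met the adjusted p of limma, and none was counted at an unadjusted p below 0.05. Their log2 fold-changes lay between −0.34 and 0.07. Of the 7 STAT genes, none met the adjusted p of limma. Stat4, which acts downstream of interleukin 12, had the largest fitted difference, 0.54, with an adjusted p of 0.152. In the SOCS family 6 genes were tested. Socs1, which restrains interferon signals, differed by −0.64 on the log2 scale without overlap of the sexes, but its adjusted p in limma was 0.0767. Socs4 and Socs5 stayed within 0.09 of 0. None of the 8 phosphatases and PIAS proteins met the adjusted p, and their log2 fold-changes lay between −0.08 and 0.25.

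Of 12 tested adaptors and messengers next to the receptors, 1 met the adjusted p. This was Src, a tyrosine kinase that cytokine receptors can also engage, which averaged −2.74 ± 0.13 in males and −3.25 ± 0.046 in females (SD, n = 4 each), a difference of 0.50 on the log2 scale (adjusted p of limma 0.00915). Irs1, an adaptor of the insulin and IGF-1 receptors, had −0.45 with an adjusted p of 0.0696.

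Among the other cytokine receptors, 3 of 16 tested genes met the adjusted p of limma. Lifr, the receptor subunit for leukaemia inhibitory factor, was 2.06-fold higher in females. It had −2.61, −2.67, −2.77 and −2.96 in the females and −3.93, −3.81, −3.70 and −3.75 in the males (log2 fold-change −1.04, standard error 0.094, adjusted p = 0.000884). The sexes were far apart and the rats of each lay close together. Il4r, the receptor chain for interleukin 4, was 1.44-fold higher in males (adjusted p = 0.00354) at its brighter probe, while its other probe differed by 0.20 on the log2 scale (adjusted p = 0.482). Csf3r, the receptor of granulocyte colony-stimulating factor, was 1.34-fold higher in males (adjusted p = 0.024). Its adjusted p reached 0.0674 with single arrays left out.

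**Figure D5:**
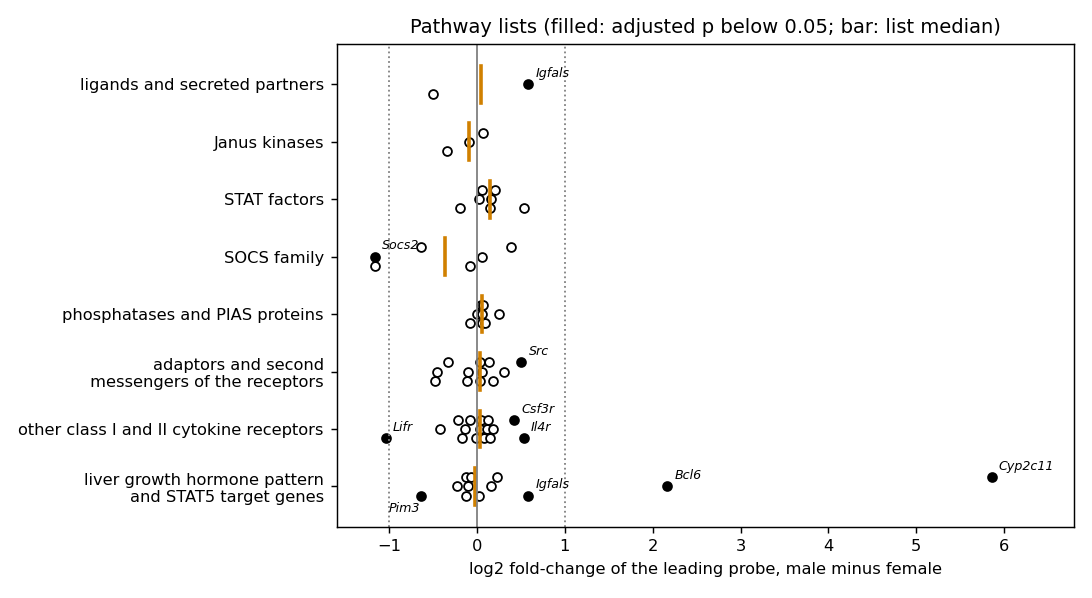
Log2 fold-change, male minus female (x axis), of the brightest probe of each tested gene in 8 pathway lists (rows); filled points have an adjusted p of limma below 0.05 and are named, and the bar is the median of the list. Most genes lie within 0.5 of 0, with Socs2, Lifr and the unfilled point of Cish past −1 and Bcl6 and Cyp2c11 past 1.

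The last list holds genes that follow the growth hormone pattern or STAT5 in liver. Of its 26 genes, 12 were tested and 10 had a probe that was well above background on fewer than 4 arrays, so that these could not be compared. Cyp2c11, the male form of cytochrome P450 in rat liver, was lowest in male replicate 2 among the males, and its difference was 5.86 on the log2 scale (adjusted p of limma 0.000396). The probe of Cyp2c12, its female counterpart in liver, was well above background on no array. Bcl6 was 4.49-fold higher in males (adjusted p = 0.0021), and Igfals, named above, belongs to the list too. Pim3, a kinase gene that cytokines induce, had 2.45, 3.05, 2.39 and 2.58 in the females and 2.07, 1.74, 1.96 and 2.16 in the males, a difference of −0.63 on the log2 scale (adjusted p of limma 0.0474). Whichever array was left out, its adjusted p rose above 0.05, to between 0.0591 and 0.113. Of the 12 tested genes, 3 met the adjusted p of limma with higher values in males and 1 in females. The others did not meet it, and the median of the list was −0.02. Among the 9 genes of all lists that met the adjusted p, male replicate 4 was the male nearest to the females for 4: Socs2, Bcl6, Igfals and Pim3. Some male is always nearest, and male replicate 4 was so at 24.6% of the 443 sex-dependent probes of the array. At Cyp2c11 it was at −0.64, between the other males.

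The genes whose signals ran most like those of the 2 sex-dependent members were sought among 14010 named probes, by the Pearson correlation over the 8 arrays. This is a description in which the sex difference takes part. For Prlr they were Unc5cl (0.989), Mlh3 (0.984) and C1qtnf12 (0.977), with log2 fold-changes of 0.56, 0.39 and 1.57. For Socs2 they were Scgb3a2 (0.993), P3h4 (0.983) and Mlana (0.982), with −1.40, −0.49 and −1.62. None of these is a gene of the pathway lists.

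Markers of the cells of the slices were compared beside these results. The 7 markers of the early proximal tubule were well above background on all arrays, 1 of them past the adjusted p and lower in males. The log2 of their summed linear signals was 7.43 to 7.57 in females and 7.42 to 7.53 in males. Sums of the other lists were formed in the same way, so that the brightest genes of a list weigh most. Of the 5 tested markers of the late proximal tubule, Slc1a1 was higher in males (log2 fold-change 0.65, adjusted p of limma 0.0239), and Slc7a13 had −0.90 without overlap of the sexes (adjusted p of limma 0.0642). Their summed signal was 4.90 to 5.89 in females and 4.77 to 5.10 in males. The summed markers of the thick ascending limb were lower in all males (5.71 to 5.88) than in all females (5.94 to 6.13). Umod, the brightest, made up most of this sum and differed by −0.26 on the log2 scale (adjusted p of limma 0.0881). Of the 4 tested genes 1 was past the adjusted p, the much dimmer Cldn16, and Cldn10 differed by 0.02. The summed markers of the glomerulus were lower in males too (3.69 to 3.75 against 3.91 to 4.01), with 2 of 6 genes past the adjusted p. Of 5 tested liver markers 2 were lower in males, Ttr and Fgb, and the summed level of the list was −1.01 to −0.09 in females and −2.79 to −2.39 in males. The other 3 did not pass the test, with log2 fold-changes of 0.53 for Alb, 0.00050 for Apoa2 and −0.05 for Ahsg, so that the lower sum was not shared by the list as a whole. The summed markers of leukocytes overlapped between the sexes (−0.26 to 0.32 in females, 0.07 to 0.41 in males). The part of the shares of these cells in the differences of Prlr, Socs2 and Cish was not tested.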

How the data were processed

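Cy3-labelled RNA from cortical kidney slices was hybridized to SurePrint G3 Rat arrays, 1 rat per array. The authors deposited spot intensities of the Feature Extraction software 10.7.3.1, with background subtracted and spatial trends removed, not normalized between arrays, and 62976 spots per array. They also deposited log2 values of equal distribution on every array. The submitters' processing notes name limma 3.8.2.

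Here, outlier spots were dropped, and each signal was put on the log2 scale relative to its array's 75th percentile of non-control spots, before averaging over the spots of a probe. A probe counted as well above background on an array if more than 50% of its spots did. Probes that did so on 4 or more of 8 arrays entered limma 3.58.1 (lmFit, eBayes) in R 4.3.3, without covariates. Both thresholds means an adjusted p below 0.05 and a log2 fold-change of at least 1 in size, and such probes are called sex-dependent. Single probes were also tested by two-sided exact permutation over 70 assignments. Names came from the RefSeq accession (17514 of 30367 probes), and chromosomes and promoters from GRCr8. Figures were drawn with matplotlib 3.10.9. In simulated data of 23425 probes, 190 of 200 probes with a true change of 2 (log2) were found, beside 1 false call. Smaller changes, of the size seen at Prlr and Socs2, were not simulated.

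Named were the 9 members with all probes, pathway list genes past the adjusted p, undetected hormone genes and the 3 genes most like each sex-dependent member. Stat4, Socs1, Socs4, Socs5, Irs1, Cyp2c12, Jak1, Jak3 and the marker genes were named after their values were seen. The members and lists were chosen with earlier results of these data known. Alternatives covered normalization (quantile, or the deposited log2 values), the filter on dim probes, outlier spots, the variance prior, array weights, blocks for replicate number or slide row, normexp correction (offset 16), single arrays left out and the second brightest probe. PCR and luciferase measurements were not analysed here.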

Additional observations from a re-analysis of the deposited data

Results flagged for a closer look

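In 26 groups, 1 for each of the 13 probes in each sex, the gap between the most distant rat and its nearest neighbour was set against the range of the 4 rats (Dixon's test). By chance 1.3 groups would stand out, 1 in 20, and 2 did. At the brighter probe of Cish, male replicate 4 was at −0.66, while the other males lay between −3.32 and −2.88. At the second probe of Igf1, male replicate 2 was at 0.92, while the other males lay between −0.01 and 0.09.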

How the results depend on the processing

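Prlr and Socs2 met the adjusted p of limma in all 19 alternative fits. The log2 fold-change of Prlr lay between 0.96 and 1.20 and that of Socs2 between −1.29 and −0.78. No member probe changed its direction in any of these fits. Both thresholds were met by 2 members, and by 1 with normexp background correction and by 1 with normexp correction and quantile normalization, where Socs2 had −0.88 and −0.78. With each array left out, 1 to 3 members met both thresholds: 1 without female replicate 2, where Prlr had 0.96, and 3 without male replicate 4, where Cish joined. With single arrays left out, the log2 fold-change of Jak2 lay between −0.50 and −0.25, and met the adjusted p without female replicate 2. That of Cish lay between −1.76 and −0.87 at the brighter probe and between −1.05 and −0.52 at the second. Cish met the adjusted p only without male replicate 4, which was picked out by its values at these probes. The number of sex-dependent probes of the array was 325 to 493, and that of pathway list genes past the adjusted p was 6 to 9. Igfals, Csf3r and Pim3 met the adjusted p in 12, 10 and 7 of 19 fits. The labels do not tie male and female rats of one replicate number together. The correlations of their deviations were 0.125, 0.044, −0.0077 and 0.116, and 4 of 8 arrays correlated best with their own number. With the replicate number as a block, 370 probes were sex-dependent in place of 443, and 2 members met both thresholds, with Prlr at 1.12 and Socs2 at −1.16. The value of Socs2, the dimmest of the 13 probes, depended on the background correction, and the cause was not tested.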
